A study of Mus musculus with 26 samples.

Results

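Heat shock proteins and their DnaJ partners are the cell's folding machinery, and 67 of the 54532 genes in the count tables encode them. They were taken by name: protein-coding genes whose symbols begin with Hspa, Hspb, Hspd1, Hspe1, Hsph1, Hsp90 or Dnaja, Dnajb or Dnajc followed by a number, leaving out 5 genes of the endoplasmic reticulum stress response (Hspa5, Hsp90b1, Dnajb9, Dnajb11 and Dnajc3). The rule reads names and no expression value, but the set was taken up with earlier results of these data known. The set holds 8 genes of the small heat shock class, placed there by an Hspb symbol alone, Hspb11 among them. It also holds 13 members of the Hsp70 family (Hspa, with its large relative Hsph1), 2 cytosolic Hsp90 genes and the 2 genes of the mitochondrial chaperonin. The other 42 are DnaJ genes, of which 4 are of type A, 11 of type B and 27 of type C.

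The samples were 26 bulk RNA-seq libraries of mouse aorta, all from male mice. Ascending aorta gave 4 libraries of Fbn1 C1041G/+ mice and 4 of wild-type (WT) littermates, and descending aorta gave libraries with the same 8 numbers. Fbn1 encodes fibrillin-1, and the heterozygous missense allele is a mouse model of Marfan syndrome, in which the ascending aorta enlarges. In a second experiment all mice carried Fbn1 C1041G/+ and only the ascending aorta was taken. Of its libraries, 5 came from mice given an antisense oligonucleotide against angiotensinogen (AGT-ASO) and 5 from mice given a control oligonucleotide (control ASO). The sources used here give no age, dose or duration, and nothing says how the numbered libraries of the 2 experiments relate. The labelled tissue fits its markers: the summed level of 8 smooth muscle genes lay between 17071 and 30873 CPM (library-scaled counts with TMM factors) in all 26 libraries.

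As background, chaperones hold unfolded proteins and help them fold. Small heat shock proteins bind unfolding clients without using ATP. Hsp70 proteins bind short exposed stretches in cycles of ATP hydrolysis that DnaJ proteins start and nucleotide exchange factors such as the Hsph1 product end. Hsp90 completes the folding of kinases and steroid receptors, and the chaperonin pair encoded by Hspd1 and Hspe1 folds proteins inside mitochondria. Under heat or other protein stress, heat shock factor 1 binds repeated GAA and TTC blocks upstream of a subset of these genes (Hspa1a, Hspa1b, Dnajb1, Hspb1 and Hsph1 among them) and raises their transcription within minutes, while others such as Hspa9, Hspa4 and most type C DnaJ genes serve everyday functions. In smooth muscle, Hspb1 and Hspb6 are also known as partners of the actin cytoskeleton that are phosphorylated when the muscle contracts or relaxes.

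Upstream sequences of 6 members named in the results are shown because they hold a match to these blocks. RefSeq promoter windows (build GRCm38.p6) were matched for 53 of the 67 genes, and the 250 bases before each annotated start were searched for GAANNTTC and TTCNNGAA, each of which is its own reverse complement, and for the triples GAANNTTCNNGAA and TTCNNGAANNTTC, which are reverse complements of each other and contain the pairs. A pair was found in 14 of the 53 genes, in 16 of their 70 windows (22.9%), against 12.8% of the 32851 windows of all genes. A triple was found in 3 genes (Dnajb6, Hspd1 and Hspe1), in 4 of 70 windows (5.71%), against 0.466% of all windows. These windows are not independent: those of Dnajb6 overlap and hold the same run, and Hspd1 and Hspe1 share theirs. Overlapping windows, such as those of Hsph1, are also counted separately in the share with a pair. Each run below reads 5′ to 3′ in the sense of the gene and ends at the base before the start, with the matched blocks in capitals. The small heat shock gene Hspb1 (chr5:135887669-135887918, plus strand) has 2 pairs, whose first bases lie at -117 and -97 from the start. The type A DnaJ gene Dnaja4 (chr9:54699309-54699558, plus strand) has 2, at -90 and -52, in one of its 2 annotated windows. The inducible Hsp70 gene Hspa1b (chr17:34959239-34959488, minus strand) has 1, at -104, and the window of its neighbour Hspa1a differs from it at 3 of 250 bases. Hsph1 (chr5:149636316-149636565, minus strand) has 1, at -54. Hspe1 (chr1:55087898-55088147, plus strand) and Hspd1 lie head to head and share 1 continuous run of blocks. Hspb6 (chr7:30553051-30553300, plus strand), which differed by region, has 1 at -120 in one of its 2 windows. Other named members also hold a pair and are not shown, among them Dnaja1 (at -124) and Dnajb4 (at -14). The windows of Dnajb1, Hspb7, Hspa12a and Dnajc6, which the results also name, hold no pair and are not shown. No window was matched for Hsp90aa1, Hsp90ab1 or Hspa8. A match is a description of the letters and not evidence of a bound site, and no match says only that these letters are not in the window.
Hspb1: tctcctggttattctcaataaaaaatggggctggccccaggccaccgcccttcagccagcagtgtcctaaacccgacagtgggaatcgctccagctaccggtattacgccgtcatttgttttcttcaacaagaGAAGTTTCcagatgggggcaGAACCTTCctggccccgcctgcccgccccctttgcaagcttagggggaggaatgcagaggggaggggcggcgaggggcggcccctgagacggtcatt
Dnaja4: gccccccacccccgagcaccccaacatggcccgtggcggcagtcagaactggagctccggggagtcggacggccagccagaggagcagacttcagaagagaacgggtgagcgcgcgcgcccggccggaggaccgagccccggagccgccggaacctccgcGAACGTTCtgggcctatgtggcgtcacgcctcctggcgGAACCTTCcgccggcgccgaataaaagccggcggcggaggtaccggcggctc
Hspa1b: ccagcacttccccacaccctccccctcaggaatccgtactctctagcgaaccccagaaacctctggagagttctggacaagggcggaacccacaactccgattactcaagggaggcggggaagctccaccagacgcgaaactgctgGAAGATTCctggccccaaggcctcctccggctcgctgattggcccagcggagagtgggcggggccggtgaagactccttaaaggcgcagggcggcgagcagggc
Hsph1: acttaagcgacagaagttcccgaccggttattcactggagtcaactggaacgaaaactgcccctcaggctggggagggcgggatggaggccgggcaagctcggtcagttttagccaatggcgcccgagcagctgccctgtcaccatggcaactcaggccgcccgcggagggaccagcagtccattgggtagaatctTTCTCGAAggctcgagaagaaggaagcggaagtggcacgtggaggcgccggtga
Hspe1: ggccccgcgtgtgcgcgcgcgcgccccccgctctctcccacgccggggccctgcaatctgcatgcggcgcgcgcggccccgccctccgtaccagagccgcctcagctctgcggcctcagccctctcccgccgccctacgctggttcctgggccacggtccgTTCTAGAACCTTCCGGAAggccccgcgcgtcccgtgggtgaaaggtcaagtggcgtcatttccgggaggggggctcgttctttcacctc
Hspb6: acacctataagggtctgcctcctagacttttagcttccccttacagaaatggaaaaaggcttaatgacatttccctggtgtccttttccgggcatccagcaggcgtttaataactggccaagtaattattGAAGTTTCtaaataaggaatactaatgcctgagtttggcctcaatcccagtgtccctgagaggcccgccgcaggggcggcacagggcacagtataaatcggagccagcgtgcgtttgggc

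The libraries held between 17171652 and 28554356 counts over genes. Of the 67 genes, 59 had enough counts to be tested in the untreated experiment and 58 in the antisense experiment. Control ASO library 8 stood apart from the other 4 control libraries in most inducible members, so the edgeR counts and named members of the antisense comparison are given with and without it. Heart muscle genes (12 markers) summed to 313–679 CPM in the C1041G/+ ascending libraries, against 290–1173 CPM in the WT ascending ones. They summed to 128–248 CPM in C1041G/+ and 74.4–147 CPM in WT descending libraries, and to 332–756 CPM with AGT-ASO, against 753–1700 CPM with control ASO. The Fbn1 allele is a base change that gene counts do not show. Agt, the target of the antisense oligonucleotide, is made mainly in liver and had at most 26 counts in an AGT-ASO library and at most 22 in a control ASO library, so these libraries do not check the treatment. In bulk tissue, fewer cells of a type and less RNA per cell cannot be told apart.

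Per exon length, the small and Hsp70 classes made up most of the members' expression in C1041G/+ ascending aorta. Levels are given as RPKM, the CPM divided by the kilobases of annotated exon. This adjusts for gene length but depends on how much exon is annotated for each gene. Summed over the small class, the level was 1910.3 ± 243 RPKM in C1041G/+ and 946 ± 189 RPKM in WT ascending aorta (SD, n = 4 each), and 1349 ± 306 RPKM in C1041G/+ and 738 ± 118 RPKM in WT descending aorta. The C1041G/+ libraries lay above the WT libraries in both regions (1634–2200.3 against 681–1128 RPKM in ascending and 968–1664 against 642–895 RPKM in descending aorta). This difference lay mainly in Hspb1, with means of 1394 against 517 RPKM in ascending and 943 against 362 RPKM in descending aorta. Hspb7 had 315 against 236 and 229 against 194 RPKM. Hspb8 had 111 against 99.1 and 116 against 114 RPKM, and Hspb6 was lower in C1041G/+ (61.5 against 68.5 and 32.5 against 38.6 RPKM).

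The summed Hsp70 class reached 1245.5 ± 427 RPKM in C1041G/+ and 725 ± 149 RPKM in WT ascending aorta, with overlapping libraries. The Hsp90 pair summed to 892 ± 99.4 RPKM in C1041G/+ and 641 ± 112 RPKM in WT ascending aorta, and the lowest C1041G/+ library (789 RPKM) lay above the highest WT library (765 RPKM). The chaperonin pair summed to 172 RPKM in C1041G/+ and 119.7 RPKM in WT ascending aorta. The 27 type C DnaJ genes hardly differed between groups: their sum averaged 252 RPKM in C1041G/+ ascending, 252 RPKM in WT ascending, 258 RPKM in WT descending, 253 RPKM with AGT-ASO and 244 RPKM with control ASO, and lay at 246–256 RPKM in the C1041G/+ descending libraries.

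Hspb1 alone held 29.1% of the members' summed RPKM in C1041G/+ ascending aorta (1394 ± 208 RPKM), against 17.7% in WT ascending aorta (517 ± 156 RPKM). Hspb1 ranked first by RPKM in C1041G/+ ascending, WT ascending and C1041G/+ descending aorta. These ranks and shares depend on the annotated exon length, 1031 bases for Hspb1 and 4301 for Hspa8. By CPM Hspa8 was the higher one in WT ascending libraries (1111–2091 CPM, against 302–673 CPM for Hspb1). In WT descending aorta its rank was 3, with 362 ± 80.0 RPKM, within its spread of Hsp90ab1 (388 ± 40.2 RPKM) and of Hspa8 (364 ± 90.0 RPKM). In the AGT-ASO libraries Hspb7, the small heat shock protein of heart and smooth muscle, ranked first with 446 ± 38.4 RPKM. Hspb1 ranked first in the control ASO libraries (560.0 ± 504.3 RPKM) through library 8; in the other 4 it had 283–385 RPKM, below Hspb7 at 396–462.0 RPKM.

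**Figure D1:**
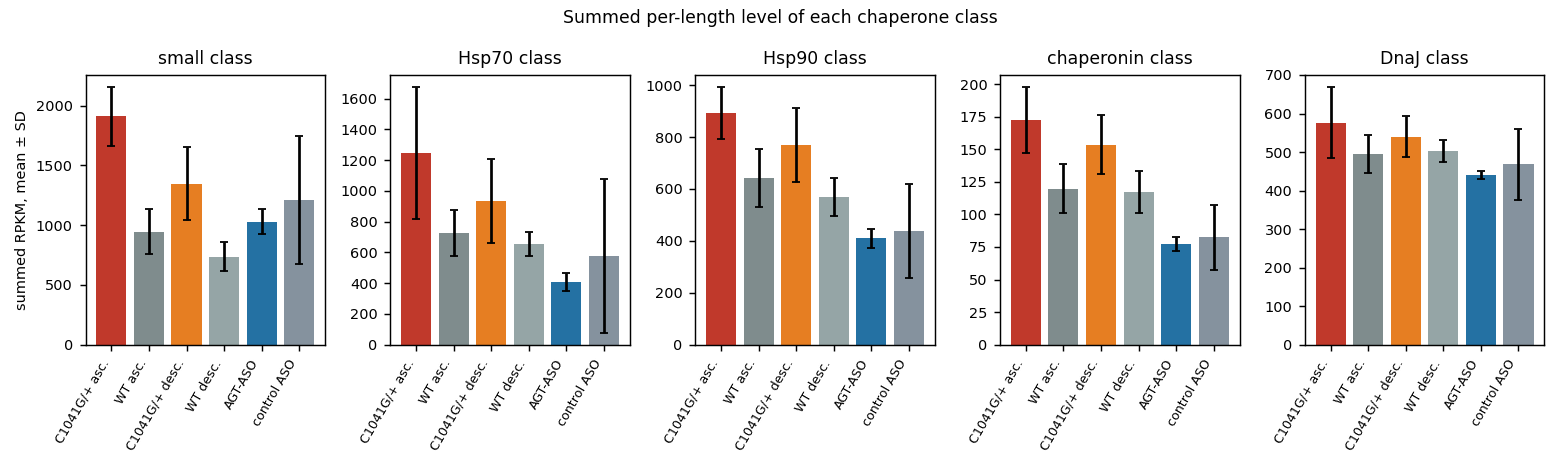
Summed RPKM of each chaperone class by group; bars are means and whiskers SD over 4 libraries (untreated groups) or 5 libraries (antisense groups), on linear axes that start at 0 and differ between panels. The small class averages 1910.3 RPKM in C1041G/+ ascending aorta and 946 RPKM in WT ascending aorta, a difference that lies mainly in Hspb1. The wide whiskers of control ASO stem from library 8.

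The first comparison was C1041G/+ against WT in ascending aorta, the segment that dilates in this model. The genes Hspb1, Hsp90aa1 and Dnaja4 rose and no member fell. These 3 of 59 tested members (5.08%) compare with 1.18% of all 15645 tested genes called higher and 2.19% called in either direction (edgeR quasi-likelihood test, Benjamini-Hochberg adjusted p under 0.05). DESeq2 called 8 members, where it called 2.51% of 30783 genes. That larger set was not filtered for low counts, so this share is not comparable with the edgeR one. Calls and adjusted p below are those of edgeR unless another test or fit is named. The median log2 fold change of the 59 members was 0.10, that of all tested genes -0.01, and 40 of the 59 were above 0. In 9 members every C1041G/+ library lay above every WT library, where 4.92% of all tested genes did so. The 3 called genes were joined by Hspb2, Hspa9, Dnajb5, Dnajb6, Dnajc2 and Dnajc24, with adjusted p between 0.0786 and 0.566.

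Among small heat shock proteins, Hspb1 had the largest difference. Hspb1 (Hsp27 in humans, which keeps unfolding proteins soluble and caps actin filaments) had 1710.1, 1492, 1218 and 1326 CPM in ascending libraries 2, 4, 6 and 8 of C1041G/+ mice, against 573, 673, 302 and 584.5 CPM in libraries 1, 3, 5 and 7 of WT mice. The lowest C1041G/+ library was far above the highest WT library, and WT library 5 was the lowest of all 8. The means were 1437 ± 214 CPM in C1041G/+ and 533 ± 161 CPM in WT (SD, n = 4 each), a log2 fold change of 1.43 ± 0.25 (SE) with an adjusted p of 0.00568. The other 5 tested members of the class did not pass. Hspb7 averaged 872 ± 104.5 CPM in C1041G/+ and 655 ± 90.2 CPM in WT (adjusted p 0.101). Hspb6, an actin-linked protein of smooth muscle, averaged 141 ± 12.5 CPM in C1041G/+ and 158 ± 20.9 CPM in WT (adjusted p 0.495). For Hspb2, which partners Hspb3 in muscle, the log2 fold change was 0.28 ± 0.08 (adjusted p 0.0897). Its exons overlap those of Cryab on the other strand, and the labels name a library kit without a strand-specific version, so reads of the 2 genes cannot be told apart where they overlap; the same holds for 23 of the 67 members in all.

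In the Hsp90 class the inducible gene rose and the constitutive one did not pass. Hsp90aa1 (the stress-inducible cytosolic Hsp90) had 1587, 1417, 1318.5 and 1651 CPM in C1041G/+ libraries 2, 4, 6 and 8, against 900.4, 849.6, 568 and 1030.4 CPM in WT libraries 1, 3, 5 and 7. All C1041G/+ libraries were above all WT libraries, and WT library 5 was again the lowest. Its log2 fold change was 0.83 ± 0.19 with an adjusted p of 0.0332. That call was lost when C1041G/+ library 2, 4 or 8 or WT library 1, 3 or 5 was left out, with adjusted p of 0.0555 to 0.0996 and log2 fold changes of 0.69 to 0.87. Hsp90ab1 (the constitutive cytosolic Hsp90) had 1634, 1286, 1481 and 1743 CPM in C1041G/+ and 1270.2, 1306, 1048 and 1508 CPM in WT ascending libraries. Its groups overlapped, with a log2 fold change of 0.26 ± 0.13 and an adjusted p of 0.32. The difference between the 2 Hsp90 genes was not tested.

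No member of the Hsp70 family passed in ascending aorta. Hspa8 (the abundant constitutive Hsc70, which also strips clathrin from vesicles) had 3239, 1715, 2615 and 3132 CPM in C1041G/+ libraries, against 1733.5, 1813, 1111 and 2091 CPM in WT libraries. Library 4 fell within the WT range and the other C1041G/+ libraries above it, and the log2 fold change was 0.67 ± 0.28 (adjusted p 0.246). Hsph1 (Hsp110, the exchange factor that resets Hsp70) had 566, 321, 455 and 645 CPM in C1041G/+ libraries, against 264, 254, 101 and 382 CPM in WT libraries, a log2 fold change of 0.99 ± 0.39 (adjusted p 0.225). Its groups overlapped through C1041G/+ library 4 and WT library 7.

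The inducible Hsp70 pair varied widely within both groups. Hspa1b had 499.5, 71.8, 1354 and 1163 CPM in C1041G/+ libraries 2, 4, 6 and 8, against 146, 148, 352 and 486.5 CPM in WT libraries 1, 3, 5 and 7. C1041G/+ library 4 was below all WT libraries and libraries 2, 6 and 8 were above them all. Its log2 fold change of 1.45 ± 0.81 had an adjusted p of 0.412. Hspa1a had 181, 34.98, 666 and 476 CPM in C1041G/+ libraries and 71.1, 61.5, 173 and 223 CPM in WT libraries in the same library order (adjusted p 0.45). The 2 genes are near-identical neighbours that share reads, so how the counts divide between them is uncertain.

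The chaperonin genes had similar fold changes and did not pass. Hspd1 (Hsp60, the folding barrel of mitochondria) had 277, 198, 243 and 295 CPM in C1041G/+ libraries, against 186, 171, 139 and 202.5 CPM in WT libraries, where only C1041G/+ library 4 fell within the WT range. Its log2 fold change was 0.54 ± 0.16 (adjusted p 0.101). Hspe1 (Hsp10, the lid of that barrel) had 143, 115, 85.8 and 108 CPM in C1041G/+ libraries and 80.5, 101, 58.1 and 76.8 CPM in WT libraries, and its log2 fold change of 0.51 ± 0.17 had an adjusted p of 0.123. The exons of the pair overlap on opposite strands, so the 2 values are not independent.

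Among the 36 tested DnaJ genes, 1 was called. Dnaja4 (a type A co-chaperone of Hsp70) had 66.1, 37.1, 43.2 and 54.8 CPM in C1041G/+ libraries, against 29.7, 31.7, 16.2 and 30.5 CPM in WT libraries. The groups did not overlap, and WT library 5 was far below the other 3 WT libraries. The log2 fold change was 0.90 ± 0.22 with an adjusted p of 0.0485, close to the threshold. Without WT library 1, 3, 5 or 7 or C1041G/+ library 2, 6 or 8 the adjusted p was 0.0595 to 0.177 and the log2 fold change 0.71 to 0.98, and Dnaja4 shares exon sequence with Wdr61 on the other strand. Dnaja1, the main type A partner of Hsc70, had 530.0, 200, 536.5 and 709.8 CPM in C1041G/+ libraries and 277.5, 322, 173 and 458 CPM in WT libraries (adjusted p 0.457). Dnajb1 (Hsp40, the partner of inducible Hsp70) had 66.5, 37.6, 315 and 178 CPM in C1041G/+ libraries and 43.8, 59.3, 92.8 and 149.8 CPM in WT libraries (adjusted p 0.583), with C1041G/+ library 4 below every WT library and libraries 6 and 8 above them. The 8 tested type B genes had log2 fold changes of 0.02 to 0.79, and the 24 tested type C genes, which include auxilin and mitochondrial import factors, -0.20 to 0.37 with a median of -0.03.

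Markers of other cell types were set beside these differences. Summed heart muscle markers reached 679 CPM in C1041G/+ and 1173 CPM in WT ascending libraries, with 1 of 12 called lower (Myh7, log2 fold change -2.18 ± 0.51, adjusted p 0.0332). With a heart muscle score as a covariate Hspb1 kept its call, while the adjusted p was 0.122 for Hsp90aa1 (log2 fold change 0.78) and 0.159 for Dnaja4 (0.88). Smooth muscle markers summed to 21149–27475 CPM in C1041G/+ and 17071–23984 CPM in WT ascending libraries, with 1 of the 8 markers called higher (Tagln, log2 fold change 0.40 ± 0.09, adjusted p 0.0198). The 7 macrophage markers summed to 789.5–1101 CPM in C1041G/+ and 631–724 CPM in WT, with none called, and all 7 were detected in both groups. Brown adipocyte markers also lay apart, at 76.6–130.5 CPM in C1041G/+ and 133.5–245 CPM in WT for the sum of 7, with none of the 6 tested called and all 7 detected in both groups. The 7 fibroblast markers summed to 6689–9162 CPM in C1041G/+ and 7835–11430.2 CPM in WT, with 1 called lower (Dpt, log2 fold change -0.61 ± 0.15, adjusted p 0.042). The skeletal muscle, white adipocyte, endothelial, mesothelial, lymphocyte and neural lists had no called gene and overlapping sums in ascending aorta. In descending aorta the 8 endothelial markers lay apart, at 2059–2402 CPM in C1041G/+ and 2418–3277 CPM in WT, with none called. The sums of the other cell type lists overlapped there, and none of their genes was called. Apart from the heart muscle score in ascending aorta, the part of these cell types in the genotype results was not tested.

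**Figure D2:**
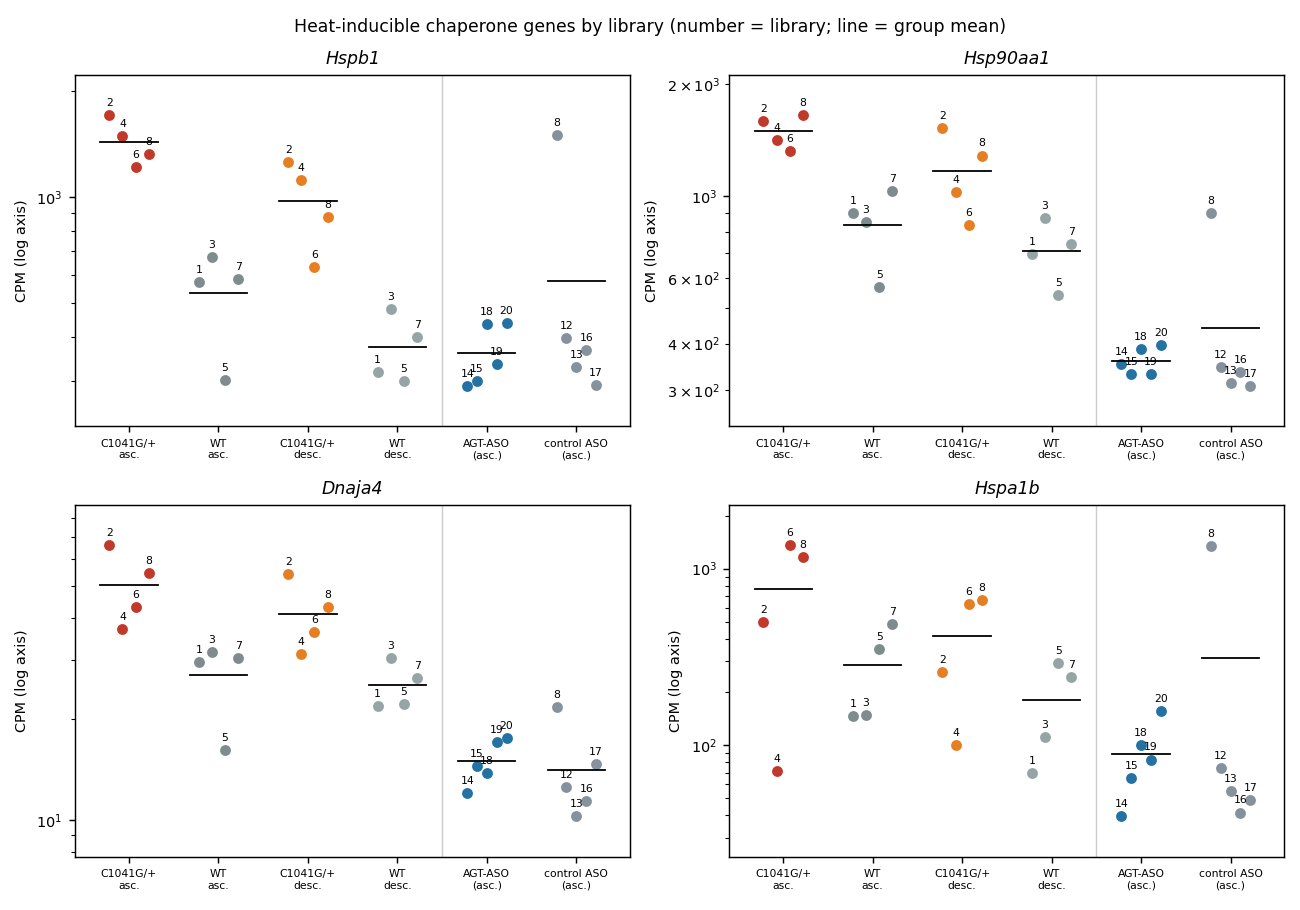
CPM on log axes of Hspb1, Hsp90aa1, Dnaja4 and Hspa1b in each library, with library numbers beside the points and group means as lines; the vertical line divides the untreated from the antisense experiment. The 4 C1041G/+ ascending libraries of Hspb1 sit at 1218–1710.1 CPM, above the WT libraries at 302–673 CPM, while those of Hspa1b spread over 71.8–1354 CPM.

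In descending aorta the same question gave 1 call, Hspb1, of 59 tested members (1.69%), where 1.21% of all tested genes were called. DESeq2 called 4 members, against 1.33% of its 30783 unfiltered genes. Hspb1 had 1261, 1119.5, 629.7 and 879 CPM in C1041G/+ libraries 2, 4, 6 and 8, against 317, 479, 299 and 399 CPM in WT libraries 1, 3, 5 and 7. The groups were again apart, with C1041G/+ library 6 the nearest to WT and libraries 2 and 4 the highest, as in ascending aorta. The log2 fold change was 1.38 ± 0.25 with an adjusted p of 0.00858. Every C1041G/+ library was above every WT library in 2 members (Hspb1 and Dnaja4), where 3.48% of all genes showed this, and below in 4 (Hspa1l, Hspa2, Hspb11 and Dnajc15), where 3.81% did.

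Hsp90aa1, Dnaja4 and Hspa2 did not pass in descending aorta. Hsp90aa1 had 1522, 1026.5, 835 and 1285 CPM in C1041G/+ libraries, against 697, 872, 539.5 and 740.2 CPM in WT libraries, a log2 fold change of 0.71 ± 0.19 (adjusted p 0.0999); C1041G/+ library 6 fell below WT library 3. Dnaja4 had 54.2, 31.4, 36.5 and 43.2 CPM in C1041G/+ libraries and 21.9, 30.4, 22.1 and 26.6 CPM in WT libraries (adjusted p 0.182). Its groups did not overlap, though C1041G/+ library 4 lay only just above WT library 3. Hspa2, the testis-enriched Hsp70 that is also expressed in other tissues, had 30.4, 28.7, 28.9 and 34.2 CPM in C1041G/+ libraries and 35.1, 46.3, 45.8 and 39.2 CPM in WT libraries, all C1041G/+ libraries being lower (log2 fold change -0.45 ± 0.12, adjusted p 0.0904).

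The other members of the core set did not pass in descending aorta. Their log2 fold changes were 0.80 ± 0.39 for Hsph1 (adjusted p 0.497) and 0.49 ± 0.28 for Hspa8 (adjusted p 0.573). Hspd1 had 0.39 ± 0.16 (adjusted p 0.383), Hspe1 0.39 ± 0.17 (adjusted p 0.397) and Hsp90ab1 0.28 ± 0.13 (adjusted p 0.42). Hspa1b had 258, 101, 627.5 and 666 CPM in C1041G/+ libraries and 69.6, 111, 293 and 244 CPM in WT libraries, with library 4 again the lowest C1041G/+ library (adjusted p 0.674). Dnaja1 and Dnajb1 had adjusted p of 0.789 and 0.908, and Hspa1a of 0.808.

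**Figure D3:**
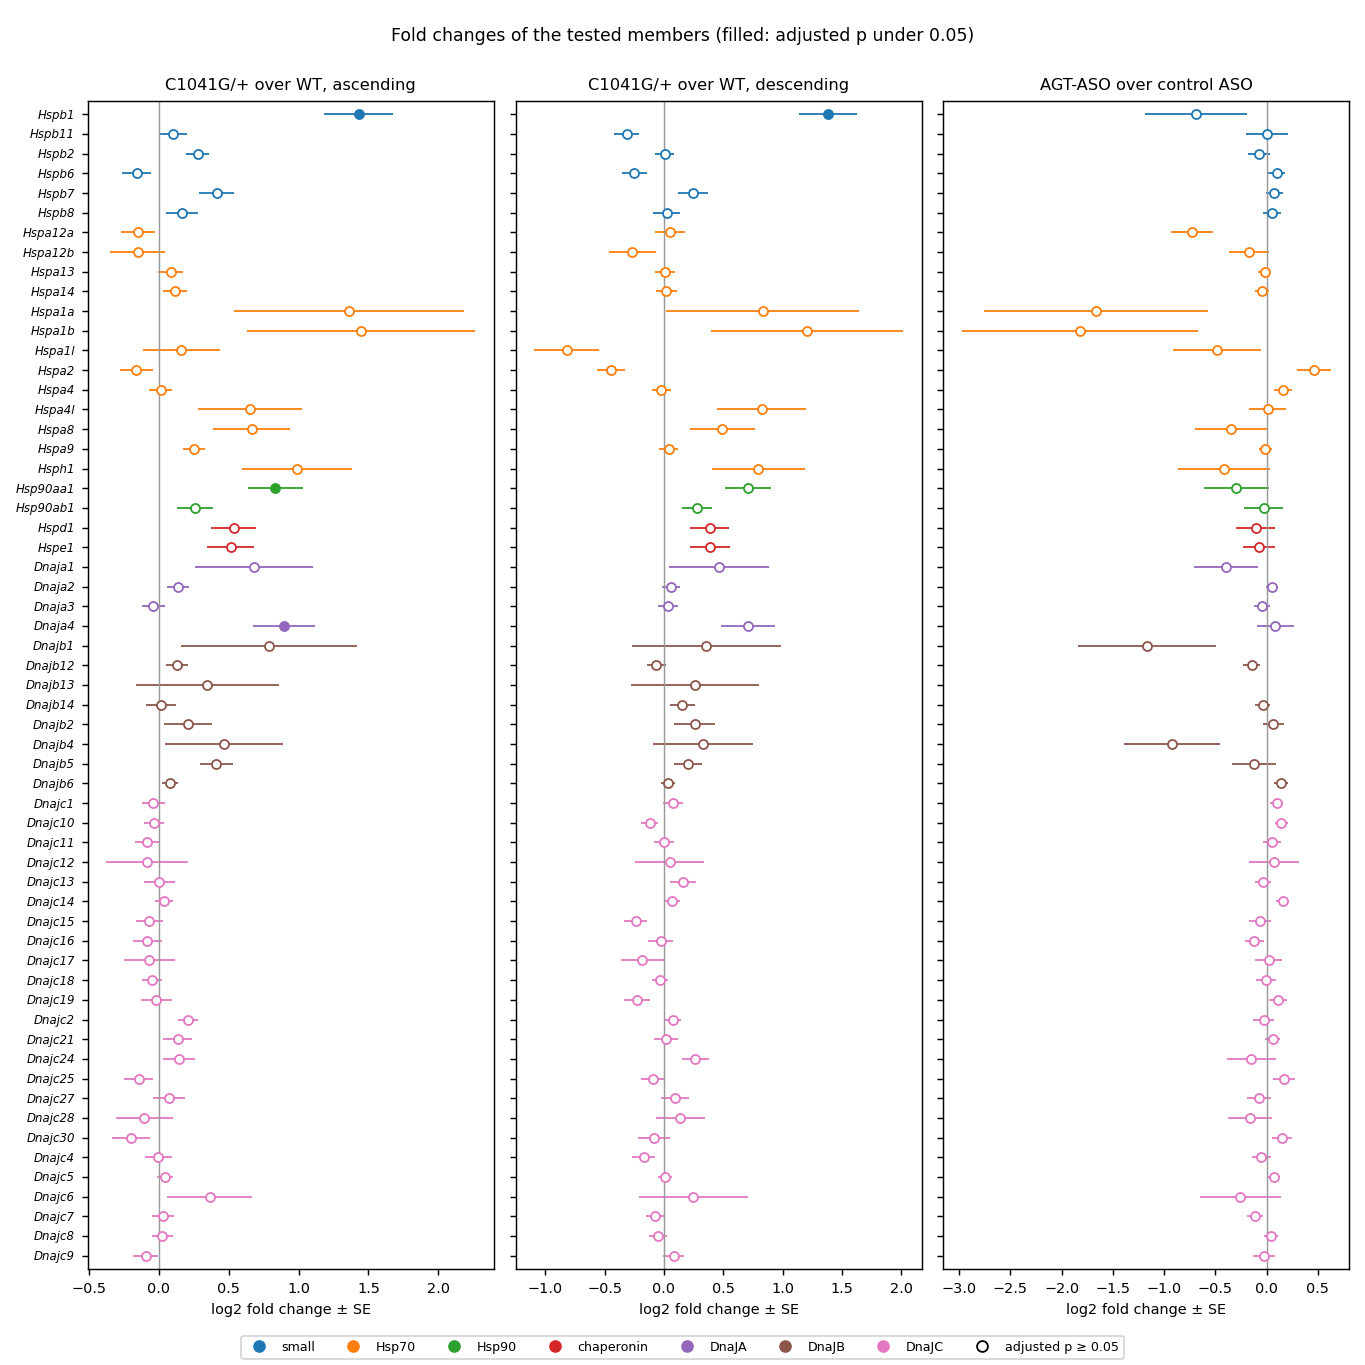
Log2 fold changes with SE of all tested members, C1041G/+ over WT in ascending aorta (left) and descending aorta (middle) and AGT-ASO over control ASO (right), ordered by class and coloured by it; filled points passed an adjusted p of 0.05. Hspb1 is filled in both genotype panels, at 1.43 and 1.38, while the 24 type C DnaJ genes lie between -0.20 and 0.37 in ascending aorta and no point is filled on the right.

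Whether the genotype difference itself depended on the region was tested as an interaction. No member passed it (0 of 59, against 0.00639% of all genes). An unadjusted p under 0.05 was found for 3 members and for 5.08% of all genes. DESeq2 called 0 members, against 0.107% of its 30783 unfiltered genes. For Hspb1 the ascending difference exceeded the descending one by 0.05 ± 0.34 on the log2 scale (adjusted p 1). The 3 members with an unadjusted p under 0.05 were Hspb11, Hspa1l and Hspb2, with adjusted p of 0.759, 0.833 and 0.909.

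With both regions averaged in 1 fit that keeps the library number as a block, a setting chosen after seeing the data, 4 members rose: Hspb1, Hsp90aa1, Dnaja4 and Hspd1 (limma, adjusted p under 0.05), where 3.09% of all genes were called. On the log2 scale the difference was 1.42 ± 0.19 for Hspb1 (adjusted p 0.000418), 0.78 ± 0.15 for Hsp90aa1 (0.00643), 0.80 ± 0.17 for Dnaja4 (0.0156) and 0.45 ± 0.12 for Hspd1 (0.0457). Hspe1 was next at 0.45 ± 0.12 (adjusted p 0.0589), and Hspb7 followed at 0.33 ± 0.09 (adjusted p 0.0638).

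The inducible members did not share 1 order of libraries. Hspa1a, Hspa1b, Dnajb1 and Dnajb4, a further inducible type B gene, were highest in C1041G/+ libraries 6 and 8 and lowest in library 4, in both regions. Dnajb4 had 357, 186, 738.5 and 646 CPM in ascending and 400.4, 234, 575 and 554 CPM in descending libraries 2, 4, 6 and 8. In WT mice, library 1 had the lowest value of Hspa1b in both regions, and libraries 5 and 7 the highest ones. Hspb1 ran differently: among C1041G/+ libraries 2 and 4 were highest in both regions, and WT library 5 was the lowest in both.

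Bag3 and Atf3, which are outside the set, followed the first order in part. Bag3, the exchange factor that links Hsp70 to small heat shock proteins, had 75.04, 57.1, 165.5 and 149 CPM in C1041G/+ and 70.7, 66.2, 86.5 and 127.5 CPM in WT ascending libraries. Atf3, a stress-induced transcription factor, had 39.04, 36.3, 277 and 104 CPM in C1041G/+ and 24.7, 28.97, 74.9 and 59.8 CPM in WT ascending libraries. C1041G/+ library 6 was the highest ascending library for both genes, and library 4 the lowest of its group. The summed level of 14 immediate early genes was 852–1661 CPM in C1041G/+ and 690–1411 CPM in WT ascending libraries. A score of these 14 genes was a covariate in alternative fits of the genotype comparisons, and the ascending count of calls is given in the last section. Those fits compare genotypes, and the part of these genes in the spread of the members within groups was not tested.

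**Figure D4:**
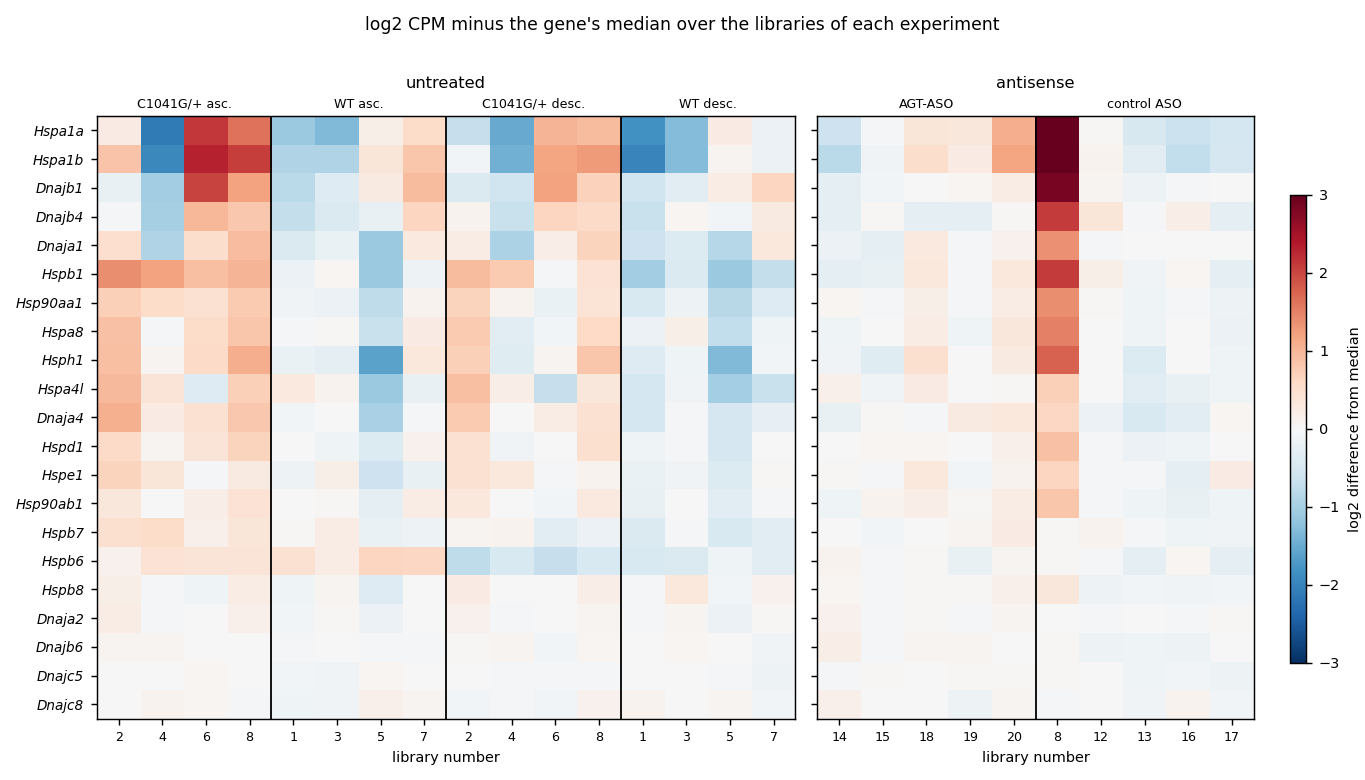
Log2 CPM of 21 members in each library minus the gene's median over the 16 untreated (left) or 10 antisense libraries (right), with the colour scale ending at 3 in either direction. C1041G/+ library 4 is blue and libraries 6 and 8 red for Hspa1a and Hspa1b in both regions, Hspb1 is red in all C1041G/+ ascending libraries, and control ASO library 8 is red from Hspa1a down to Hsp90ab1.

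Of the wider folding network, 2 of 59 tested genes (3.39%) were called in ascending aorta, where 2.19% of all genes were, and 0 in descending aorta. In ascending aorta 1 of 14 tested genes of the cytosolic TRiC chaperonin and prefoldin was called, Cct7, at 199 ± 13.3 CPM in C1041G/+ and 156 ± 12.8 CPM in WT (log2 fold change 0.35 ± 0.09, adjusted p 0.0485). Cryab, the alpha B-crystallin that belongs to the small heat shock family but carries another symbol, was called as well. It had 365, 353, 217 and 258.5 CPM in C1041G/+ and 186, 221, 141 and 184 CPM in WT ascending libraries, of which C1041G/+ library 6 lies below WT library 3 (log2 fold change 0.70 ± 0.18, adjusted p 0.048). None of the 5 tested heat shock factor genes, 13 Hsp70 co-factors, 15 Hsp90 co-chaperones, 6 aggregate clearance genes or 5 endoplasmic reticulum chaperones was called in ascending or in descending aorta. Hsf1, the main heat shock factor, averaged 42.2 ± 6.07 CPM in C1041G/+ and 41.6 ± 6.56 CPM in WT ascending aorta. Over both regions together (limma), 1 of 13 Hsp70 co-factors, 1 of 15 Hsp90 co-chaperones and 1 of 14 TRiC and prefoldin genes were called higher. So was 1 of 2 tested genes of the alpha-crystallins and Hsp47, where 3.09% of all genes were called in either direction. The other folding lists had no call in that fit. Stip1 (Hop), the adaptor that joins Hsp70 to Hsp90, was among the called genes (log2 fold change 0.74 ± 0.18, adjusted p 0.0322).

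The region comparison, ascending against descending aorta, called 4 members higher in C1041G/+ mice and 4 higher and 1 lower in WT mice. These are 6.78% and 8.47% of the 59 tested members, where 9.92% and 11.1% of all genes were called. Hspb6, Hspa12a and Dnajc6 were called in both genotypes, and their libraries were separate in both.

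Hspb6 had 123, 151, 146 and 146 CPM in ascending and 66.3, 81.04, 69.3 and 81.95 CPM in descending libraries of C1041G/+ mice. In WT mice it had 153, 130.1, 176 and 171 CPM in ascending and 81.6, 83.3, 102 and 88.2 CPM in descending libraries. Every ascending library was above every descending one, with log2 fold changes of 0.92 ± 0.11 in C1041G/+ (adjusted p 8.21e-06) and 0.83 ± 0.11 in WT (adjusted p 2.25e-05). Its exons overlap those of Lin37 and Proser3 on the other strand.

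Hspa12a, a distant Hsp70 relative, had 16.4, 18.3, 14.03 and 12.3 CPM in ascending and 8.26, 9.24, 9.40 and 10.2 CPM in descending libraries of C1041G/+ mice. In WT mice it had 15.9, 16.8, 16.8 and 18.01 CPM in ascending and 10.1, 8.18, 8.04 and 9.49 CPM in descending libraries. Ascending libraries were the higher ones throughout, with log2 fold changes of 0.71 ± 0.12 in C1041G/+ (adjusted p 0.000649) and 0.92 ± 0.12 in WT (adjusted p 4.32e-05).

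Dnajc6 (auxilin, which recruits Hsc70 to uncoat clathrin vesicles and is best known in neurons) had the widest difference at a low level. It had 4.74, 4.19, 2.40 and 3.35 CPM in ascending and 0.506, 0.34, 0.374 and 0.195 CPM in descending libraries of C1041G/+ mice, and 3.95, 2.65, 2.14 and 2.68 CPM in ascending and 0.163, 0.457, 0.117 and 0.422 CPM in descending libraries of WT mice. The descending libraries rest on 2 to 9 counts each. The log2 fold changes were 3.37 ± 0.38 in C1041G/+ (adjusted p 5.32e-06) and 3.25 ± 0.39 in WT (adjusted p 9.88e-06).

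The remaining region calls were made in 1 genotype each, and that the genotypes differ was not shown by the interaction. Hspb7 was higher in ascending aorta of C1041G/+ mice by 0.46 ± 0.13 on the log2 scale (adjusted p 0.0252), which was 0.0716–0.0928 without ascending library 2 or 4 or descending library 6 or 8. In WT mice it had 0.29 ± 0.13 (adjusted p 0.192). Dnajc1, a DnaJ protein of the endoplasmic reticulum membrane, had 0.28 ± 0.08 in WT (adjusted p 0.0313) and passed no longer without WT ascending library 1, 5 or 7 or descending library 1, 5 or 7 (adjusted p 0.0551–0.0971). Hspb2 was lower in WT ascending aorta, with -0.32 ± 0.08 (adjusted p 0.0152), and passed no longer without WT ascending library 5 or descending library 7 (adjusted p 0.0634 and 0.0547).

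Keeping the library number as a block, which removes the differences between numbers, gave 10 members in C1041G/+ (16.9% of 59, where 14.8% of all genes were called) and 9 in WT (15.3%, where 15.5% of all genes were called). In C1041G/+ mice Hspb1 (log2 fold change 0.60, adjusted p 0.00385), Hsp90aa1 (0.39, 0.019), Hsph1 (0.34, 0.0281), Hspd1 (0.22, 0.0334) and Hspa8 (0.31, 0.0484) joined as higher in ascending aorta, and Dnajc25 (-0.26, 0.0411) as lower. In WT mice Hspb1 (0.48, 0.0149) and Hspb7 (0.29, 0.00998) joined as higher, and Hspb8 (-0.20, 0.0367) and Hspa1l (-0.75, 0.0456) as lower. Heart muscle markers were called higher in ascending aorta for 7 of 12 genes in C1041G/+ and 10 of 12 in WT mice. The 7 mesothelial markers summed to 330–574 CPM in ascending and 9.24–23.8 CPM in descending libraries of C1041G/+ mice, and 286–406 CPM and 5.59–12.2 CPM in those of WT mice. Their part in the region differences was not tested. Among the other folding genes, Unc45b, the myosin co-chaperone of heart and skeletal muscle, was higher in ascending aorta (log2 fold change 1.66 ± 0.14 in C1041G/+ and 2.00 ± 0.14 in WT).

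**Figure D5:**
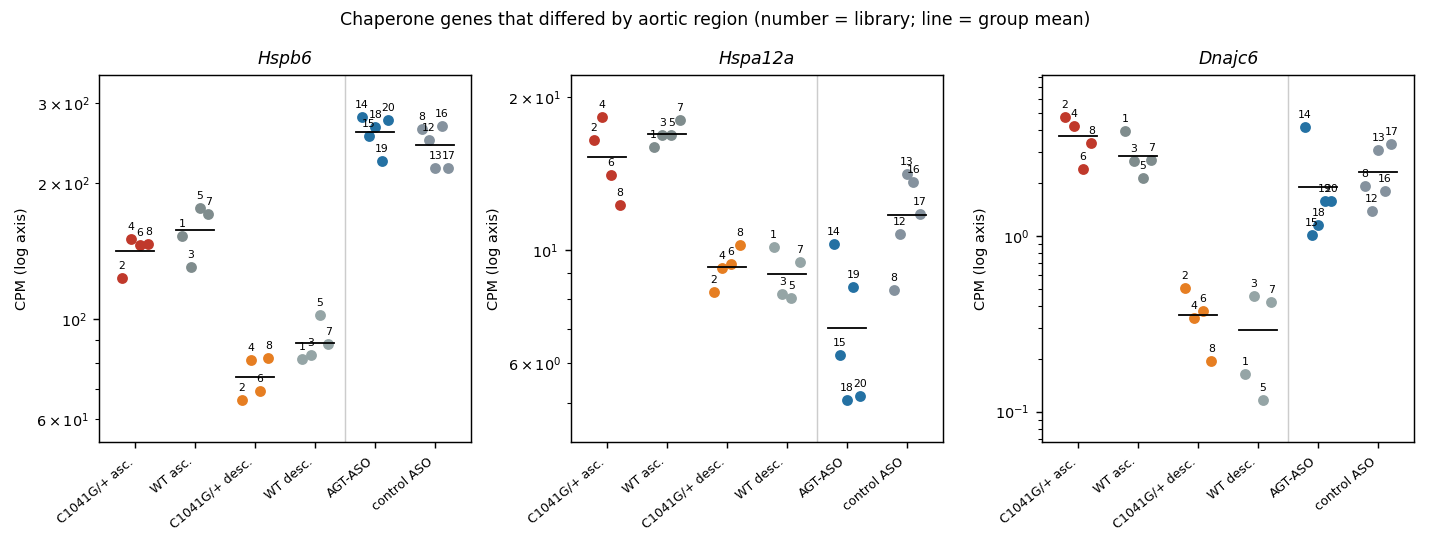
CPM on log axes of Hspb6, Hspa12a and Dnajc6 in each library, with library numbers and group means as lines. Ascending libraries are above descending ones of the same genotype for all 3 genes; the antisense libraries are all ascending aorta.

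AGT-ASO against control ASO in C1041G/+ ascending aorta changed no member by the edgeR quasi-likelihood test (0 of 58 tested, against 0.0668% of all 14981 tested genes). At an unadjusted p under 0.05 there were 5 members (Hspa12a, Hspa2, Dnajc14, Dnajc10 and Dnajb6), where 12.7% of all genes had one. DESeq2 called 1 member, Hspa12a, against 0.886% of its 28321 unfiltered genes. In no member did the libraries of the groups lie apart, where 1.31% of all genes were wholly higher and 1.14% wholly lower with AGT-ASO. Without control library 8, 0 of 58 members were called (against 1.19% of all genes) and 13 had an unadjusted p under 0.05 (against 15.8%). In that setting the libraries of Hspa4, Hspd1 and Hspb8 lay wholly higher with AGT-ASO, where 2.93% of all genes did, and those of Hspa12a and Dnajc7 wholly lower, where 2.93% did. Library 8 exceeded the other control libraries in the inducible members.

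Hspb1 had 290.1, 299, 434, 334.5 and 438 CPM in AGT-ASO libraries 14, 15, 18, 19 and 20, against 1505, 397, 327, 367 and 291 CPM in control ASO libraries 8, 12, 13, 16 and 17. Library 8 was far above the other 9. With it the log2 fold change was -0.69 ± 0.50 (adjusted p 0.619), and without it 0.06.

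Hspa1b had 39.8, 64.99, 99.7, 82.99 and 157 CPM in AGT-ASO libraries, against 1349.7, 74.3, 55.2, 41.6 and 48.8 CPM in control ASO libraries. Library 8 was the highest by far and the other 4 controls were below AGT-ASO libraries 18, 19 and 20. The log2 fold change was -1.82 ± 1.15 with library 8 and 0.69 without it (adjusted p 0.563 with it). Hspa1a had 24.1, 35.9, 47.5, 46.5 and 78.3 CPM in AGT-ASO libraries and 622, 37.9, 26.4, 23.8 and 25.4 CPM in control ASO libraries, a log2 fold change of -1.67 ± 1.09 with library 8 and 0.71 without it.

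Dnajb1 had 36.2, 41.9, 44.2, 45.6 and 50.9 CPM in AGT-ASO libraries and 318, 46.2, 39.5, 43.05 and 43.8 CPM in control ASO libraries (log2 fold change -1.17 ± 0.68 with library 8, 0.02 without it). Hspa8 had 843, 906, 1081, 839 and 1156 CPM in AGT-ASO libraries and 2628, 935, 839, 934 and 809.9 CPM in control ASO libraries (-0.35 ± 0.35 with library 8, 0.13 without it). Library 8 again had the highest value of all 10 libraries for both genes.

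The same sign change without library 8 held for Hsph1 (-0.42 ± 0.45 and 0.21), Hsp90aa1 (-0.29 ± 0.32 and 0.14), Hsp90ab1 (-0.03 ± 0.19 and 0.22), Hspd1 (-0.11 ± 0.19 and 0.14), Hspe1 (-0.07 ± 0.15 and 0.09) and Dnaja1 (-0.40 ± 0.31 and 0.0099), each with the log2 fold change first with and then without it. None of these was called in either fit. Atf3 had 250.2 CPM in library 8 and 17.4–30.7 CPM in the other control ASO libraries, and the summed immediate early genes reached 2133 CPM, the highest of the 5 controls. With an immediate early score as covariate, the sign of the fold change turned for several of these members, as given in the last section. That fit estimates the treatment difference. The part of the immediate early genes in the chaperone levels of library 8 was not itself tested.

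Hspa12a had 10.3, 6.21, 5.08, 8.45 and 5.17 CPM in AGT-ASO libraries, against 8.34, 10.8, 14.1, 13.6 and 11.8 CPM in control ASO libraries. The groups overlapped because control library 8 lay below AGT-ASO libraries 14 and 19. The log2 fold change was -0.73 ± 0.20 (adjusted p 0.174) with library 8 and -0.83 ± 0.20 (adjusted p 0.052) without it, where the 4 controls left, at 10.8–14.1 CPM, lay above all AGT-ASO libraries. Hspa2 had 48.8, 57.9, 61.8, 82.7 and 76.5 CPM in AGT-ASO libraries and 61.4, 49.98, 34.95, 44.9 and 46.5 CPM in control ASO libraries (log2 fold change 0.46 ± 0.17, adjusted p 0.289, with library 8 and 0.57 ± 0.16, adjusted p 0.112, without it). The heart muscle genes lay lower with AGT-ASO (332–756 CPM, against 753–1700 CPM with control ASO). A heart muscle score was a covariate in an alternative fit of this comparison, whose values for Hspa12a and Hspa2 are not given here. Beyond that fit, the part of the heart muscle genes in these values was not tested. The 6 groups come from 2 experiments, so the lower levels of most inducible members in the antisense libraries (for Hsp90aa1 359 ± 30.8 CPM with AGT-ASO, 440.5 ± 257 CPM with control ASO and 1493 ± 153 CPM in untreated C1041G/+ ascending aorta) cannot be told apart from a difference between experiments.

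The genes whose levels followed Hspb1 most closely across libraries were found by Pearson correlation of log2 CPM over the 26 libraries after the mean of each group was removed, among 14742 genes. They were Hsp90aa1 (r = 0.921), Dusp3 (0.879), Hsp90ab1 (0.857), Arf1 (0.831) and Ppp1r12c (0.831). These values are a description: libraries with the same number deviate together, and control ASO library 8 is the far point for Hspb1.

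Several members were too low to test. Dnajc5g had 0 counts in every library. Dnajb8 and Dnajc5b had at most 1, Dnajc22 at most 2, Dnajb7 at most 6, Hspb3 at most 8, Hspb9 at most 9 and Dnajb3 at most 25 counts in any library. Dnajb13, with 1 to 25 counts, was tested in the untreated experiment alone.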

How the data were processed

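RNA of the aortic samples was extracted with a fibrous tissue kit, and libraries were made with a NEBNext Ultra RNA kit, per the labels' protocols. The submitters' processing notes name fastp, STAR 2.6.1d and the genome build mm10. The gene counter, annotation release and strand setting were not given in the sources used here. The deposited files hold whole-number counts per gene, 1 file a library, as the authors made them. Gene names came from GENCODE M21 and matched 99.93% of the IDs.

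From the counts, TMM-scaled CPM, RPKM over the union of exons and fold changes were computed. The 16 untreated libraries (17171652 counts or more each) were fitted in 1 model with a mean for each group, and the 10 antisense libraries apart, with edgeR 4.0.16 (quasi-likelihood test, two-sided, low genes filtered by group, Benjamini-Hochberg over all tested genes, threshold 0.05). Alternatives used limma 3.58.1 and DESeq2 1.42.0 in R 4.3.3. On simulated counts with 200 genes changed 2-fold, 66% were recovered in the ascending genotype comparison and 77.5% in the antisense comparison. The changed genes were picked at random, and deviations of a library shared by many genes, as in control ASO library 8, were not simulated. These shares therefore do not hold for the inducible members that vary widely within groups, such as Hspa1a and Hspa1b. Nothing in the labels says that libraries with the same number come from 1 mouse. In 8 of 8 pairs their deviations from the group means correlated weakly (r = 0.162 to 0.305, other pairs averaging -0.033). For 6 of the 8 ascending libraries the descending library of the same number was the closest one. The numbers are therefore taken to pair the regions, which is not certain, and the fit with the number as a block is given where it moves a count. Where the labels do not say that libraries of a group come from separate mice, p-values measure the spread between these libraries.

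The 67 members and all lists were chosen with earlier results of these data known. Values are given for 11 core members (Hspb1, Hspa1a, Hspa1b, Hspa8, Hsph1, Hsp90aa1, Hsp90ab1, Hspd1, Hspe1, Dnaja1 and Dnajb1), for every member called by genotype, interaction or antisense treatment, and, by region, for those called in both genotypes with at least 1 CPM; Dnajb4, Hspa2, Hspb7, Hspb2, Dnajc1, Hspa12a in the antisense comparison, Hspa4, Hspb8 and Dnajc7 there, Bag3, Atf3, Tagln, Myh7 and Dpt were added after their values were seen.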

Additional observations from a re-analysis of the deposited data

Results flagged for a closer look

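Among 18 members checked in the 6 groups (108 checks), 12 had a library at one end of its group farther from the rest than Dixon's 95% critical value allows; chance marks about 1 in 20 groups. The library that causes 10 of the 12 is control ASO library 8, the highest of its group. It had 1505 CPM for Hspb1 (other controls 291–397), 622 CPM for Hspa1a (23.8–37.9), 1349.7 CPM for Hspa1b (41.6–74.3), 2628 CPM for Hspa8 (809.9–935), 290.2 CPM for Hsph1 (64.3–86.0), 899 CPM for Hsp90aa1 (308–346.5), 1594 CPM for Hsp90ab1 (769.5–881), 186 CPM for Hspd1 (90.4–100.8), 365 CPM for Dnaja1 (136–141) and 318 CPM for Dnajb1 (39.5–46.2). The 10 genes are not independent, since they lie in 1 library.

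The other 2 are single genes. Dnaja4 had 16.2 CPM in WT ascending library 5, the lowest, against 29.7–31.7 CPM in the other 3. Dnajc6 had 4.18 CPM in AGT-ASO library 14, the highest, against 1.02–1.58 CPM in the other 4.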

How the results depend on the processing

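Hspb1 kept its call in all 16 alternatives in ascending and all 15 in descending aorta, and Hspb6, Hspa12a and Dnajc6 kept theirs by region in all 14 of each genotype. In ascending aorta the 3 members called became 1 without the low-count filter, 1 with a heart muscle score as covariate, 6 with an immediate early score as covariate, 8 by DESeq2 and 1 to 2 when a library was left out. Hsp90aa1 lost its call in 8 of 16 alternatives and Dnaja4 in 11 of 16. In descending aorta the single call became 2 without the filter, 4 by DESeq2 and 1 to 2 when a library was left out, the 2 arising without C1041G/+ library 6. By region, the 5 WT calls became 3 without the filter, 3 with the compared groups fitted alone and 3 to 6 when a library was left out (3 without descending library 7), and C1041G/+ counts ran from 3 to 4 when a library was left out. The replicate block, which uses the pairing of regions by library number, gave 10 calls in C1041G/+ and 9 in WT aorta, and 4 in the fit over both regions, and changed no other count beyond 1.5 times; no library number occurs in both antisense groups.

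The antisense comparison gave 0 calls, 1 without the filter (Hspa12a), 1 with an immediate early covariate (Hspa2), 1 by DESeq2 (Hspa12a) and 0 when any library was left out. With the immediate early score as covariate the sign turned for Hsp90ab1 (0.13), Hspa1a (0.42), Hspa1b (0.47), Hspd1 (0.044), Hspe1 (0.00021) and Hsph1 (0.016). Leaving out 1 library gave log2 fold changes of -0.86 to 0.056 for Hspb1, -1.95 to 0.71 for Hspa1a, -2.13 to 0.69 for Hspa1b, -0.47 to 0.13 for Hspa8, -0.57 to 0.21 for Hsph1, -0.40 to 0.14 for Hsp90aa1, -0.11 to 0.22 for Hsp90ab1, -0.18 to 0.14 for Hspd1, -0.17 to 0.088 for Hspe1, -0.49 to 0.0099 for Dnaja1 and -1.36 to 0.021 for Dnajb1. The positive values came without control ASO library 8, and for Hsp90ab1 also without AGT-ASO library 14 (0.02). The cause was not tested. Members with few counts in every library cannot show a difference at this depth.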
